A study of Sus scrofa with 23 samples.

Results

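ZEB1 was counted on 2 Ensembl identifiers, ENSSSCG00000020757 and ENSSSCG00000011025, which are 2 of the 25322 gene rows measured by RNA-seq in pig backfat. Both rows and their sum were followed in all 23 pigs. The gene was chosen by its normalised counts, for the difference between the control diet and the diets with cDDGS in these same pigs, so its levels against the control group are a description and carry no test. The tests below are on what that choice did not use: the diets with cDDGS against each other, females against males, the agreement of the rows within diets, and the relation of ZEB1 to other genes within diets.

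ZEB1 is a zinc finger transcription factor that binds E-box sequences and, together with corepressor proteins, silences epithelial genes such as CDH1 during epithelial-mesenchymal transition. It is expressed in mesenchymal cells, and in fat it has been linked to adipogenesis, the formation of fat cells from their precursors. Lipogenesis is the other process followed here, the making of fatty acids from citrate by ACLY, ACACA and FASN, their desaturation by SCD and their storage as triglycerides.

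Backfat, the subcutaneous fat of the back, came from crossbred fattening pigs kept in individual pens, and each sample was a separate pig. Group I (-cDDGS+rapeseed oil) was the control with 7 pigs, group II (+cDDGS+rapeseed oil) held 6, group III (+cDDGS+beef tallow) 5 and group IV (+cDDGS+coconut oil) 5. cDDGS is the dried residue of maize that remains after alcohol production, the diets were balanced for energy and nitrogen, and 12 pigs were females (gilts) and 11 males (castrated barrows). The control diet therefore differed from those of groups III and IV in cDDGS and fat source together, and these cannot be told apart there. Per the study, it also held less fat and fiber and more starch than each diet with cDDGS, that of group II included.

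The gene counts of a pig summed to 2437172 to 7979426 reads, with a median of 4717511, and 332 to 1365 of them fell on ZEB1. A single row, ENSSSCG00000018063, took 20.8 to 37.1% of the gene counts of a pig. Fat cell genes were found in every pig, with PLIN1, the protein that coats lipid droplets, at 740 to 1469 CPM, which are counts per 1000000 reads on genes after scaling by the TMM method. ADIPOQ, FABP4 and LEP were not paired with an identifier and were not used here.

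ZEB1 stood lowest in the control group. Summed over both rows, its level in group I ran from 107.9 CPM through a median of 126 to 171.7, a mean of 131 ± 23.2 (SD, n = 7). In group II the lowest pig had 158 CPM, the median was 176 and the highest pig had 202, with a mean of 178 ± 14.3 (SD, n = 6). The groups overlapped in their sums, and 4 of the 6 pigs of group II lay above every control pig.

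The 5 pigs of group III had 152, 154, 155, 180 and 211 CPM, a mean of 170 ± 25.6 (SD, n = 5). Group IV was the most spread, with 143, 151, 185, 215 and 235 CPM and a mean of 186 ± 39.7 (SD, n = 5). Of these, 2 pigs of group III and 3 of group IV were above all control pigs, and the lowest pigs of both groups lay among the controls.

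**Figure D1:**
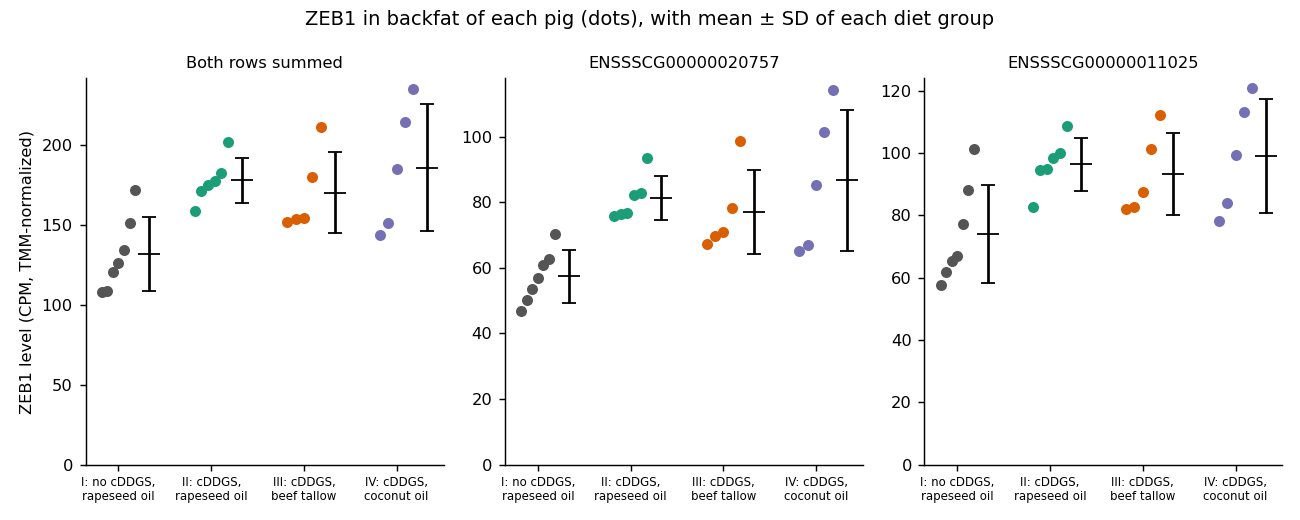
ZEB1 level in CPM of each pig (dots, sorted within a group) by diet group, for both rows summed and for each row, with the group mean and SD as a bar. Most pigs of groups II, III and IV sit above most controls, and only on ENSSSCG00000020757 in group II are all 6 pigs above the highest control.

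The separation was clearest on ENSSSCG00000020757. This row had 46.9 to 70.3 CPM for group I (median 57.0) and 75.9 to 93.4 CPM for group II (median 79.5), with no overlap between these groups. Over all 11039 genes compared in this way, 0.245% had every pig of group II above every control pig. For counts of only part of a group, a share over all genes is not given. In group III the values were 67.2, 69.8, 70.9, 78.4 and 98.8 CPM, and in group IV they were 65.2, 66.8, 85.4, 101 and 114 CPM. In each of these groups 3 of 5 pigs passed the highest control.

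ENSSSCG00000011025 overlapped more between groups. Its level was 57.5 to 101.4 CPM for group I (median 67.1) and 82.5 to 109 CPM for group II (median 96.7). The pigs of group III had 82.1, 82.8, 87.4, 101.2 and 112 CPM, and those of group IV had 78.1, 84.0, 99.2, 113 and 121 CPM. Above the highest control, pig 1, were 1 pig of group II, 1 of group III and 2 of group IV.

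In log2 fold changes from edgeR, which are given without a p, summed ZEB1 was higher than in group I by 0.43 (SE 0.12) in group II, 0.37 (SE 0.14) in III and 0.50 (SE 0.15) in IV. Over the 16 pigs of groups II, III and IV the difference was 0.44 (SE 0.10), a fold of 1.35. It was 0.51 (SE 0.11) on ENSSSCG00000020757 and 0.38 (SE 0.11) on ENSSSCG00000011025. These comparisons share the same 7 control pigs and are not independent of each other.

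Other measures moved with the groups. Uniquely mapped reads that the read counting assigned to no gene are called reads outside genes here. Whether some of them lay within genes, such as in introns, is not given by the counts. Their share was 56.8 ± 2.53% for group I (SD, n = 7), 62.5 ± 5.81% for group II (SD, n = 6), 56.8 ± 4.0% for group III (SD, n = 5) and 63.0 ± 5.05% for group IV (SD, n = 5). With this share as a covariate, the ZEB1 difference of group IV from group I fell from 0.50 to 0.14 on the log2 scale, while that of group II was 0.41, that of group III 0.38 and that of the combined groups 0.35. The value of group IV thus moved most. Groups I and III had the same mean share, 56.8%, so the covariate could move the value of group III only little. The part of these reads in the ZEB1 level was not tested.

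Markers of cell types other than fat cells also differed between groups. Of 14 macrophage markers 11 had a row, none of them at 0 in all pigs, and their summed level was 47.7 to 198 CPM in group I, 223 to 432 in group II, 96.6 to 266 in III and 108 to 259.7 in IV. Of 16 stromal markers, the connective tissue cells in which ZEB1 is known to be expressed, 13 had a row and none was at 0, with 14168 to 24283 CPM in group I, 14370 to 26252 in group II, 9867 to 18787 in III and 10526 to 18800 in IV. In the stromal sum, COL3A1, a collagen, averaged 7981 CPM over all pigs, against 69.4 for PDGFRA and 30.8 for FBLN1. The genes with the most reads thus set this sum. The macrophage level of all 6 pigs of group II was above every control. The stromal level lay below every control in 4 of 5 pigs of group III and 3 of 5 of group IV. Of 11039 single genes, 0.245% had every pig of group II above every control, which is not a share for sums of genes. The macrophage list was chosen with earlier results of these data known. It holds genes that the study called in this same comparison, such as VSIG4 and C5AR1, so the separation is a description. For part of a group, a share over all genes is not given, so these stromal counts are a description. The part of these cells in the ZEB1 level was not tested across groups, and in whole tissue fewer cells of a type and less RNA per cell cannot be told apart.

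Between the diets with cDDGS, ZEB1 did not differ beyond the spread between pigs. The log2 fold change of group III from group II was -0.06 (SE 0.12), with an adjusted p of 0.979 by edgeR's quasi-likelihood test and p = 0.502 by an exact two-sided permutation test of the pigs. Its fold had a 95% interval from 0.803 to 1.15. For group IV against group II the change was 0.05 (SE 0.14), the adjusted p from edgeR 0.994, the exact permutation p 0.773 and the interval of the fold 0.844 to 1.28.

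Group IV against group III gave a change of 0.13 (SE 0.16), an adjusted p from edgeR of 0.997, an exact permutation p of 0.524 and an interval of the fold from 0.859 to 1.39. The order of the group means was thus IV, II, III and I. The first 3 did not differ from each other beyond their spread, although a difference within these intervals is not excluded. In edgeR, 0.0% of genes passed an adjusted p under 0.05 with a fold above 1.3 in any of these 3 comparisons, and at an unadjusted p under 0.05 it was 2.79% up and 3.43% down for III against II, 2.08% and 2.91% for IV against II, and 2.3% and 1.82% for IV against III. DESeq2 called 13 genes (0.0748%) up and 12 (0.0691%) down for III against II, 1 (0.00578%) up and 1 (0.00578%) down for IV against II and 0 (0.0%) for IV against III, and ZEB1 was not among them.

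The separate rows gave the same picture. On ENSSSCG00000020757 the exact permutation p was 0.418 for III against II, 0.714 for IV against II and 0.452 for IV against III. On ENSSSCG00000011025 the exact permutation p was 0.576, 0.842 and 0.603 in the same order.

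No difference of ZEB1 by sex was detected. With diet group as covariate, ZEB1 in females was higher than in males by 0.04 (SE 0.10) on the log2 scale, with an adjusted p of 0.852 by edgeR's quasi-likelihood test and a 95% interval of the fold from 0.895 to 1.18. In this comparison 0.691% of all genes were called higher and 0.263% lower in females, and among them were FN1 (1.17, SE 0.21, adjusted p = 0.00670) and COL1A2 (0.82, SE 0.18, adjusted p = 0.0282), matrix genes that were the 2 called among 13 rows of stromal markers tested. Without each pig in turn, the ZEB1 value lay between -0.00 and 0.10.

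The 2 rows rose and fell together from pig to pig. After the mean of each diet group had been subtracted on the log2(CPM + 0.5) scale, their Pearson r over the 23 pigs was 0.88 and Spearman's rho 0.89, each with p = 1e-05, the smallest that 100000 permutations of the pigs within diets can give. Without pigs 5 and 54, the pigs farthest from the median of ENSSSCG00000020757, r was 0.86. Within single diets r was 0.87 in group I, 0.75 in group II, 0.92 in III and 0.99 in IV.

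**Figure D2:**
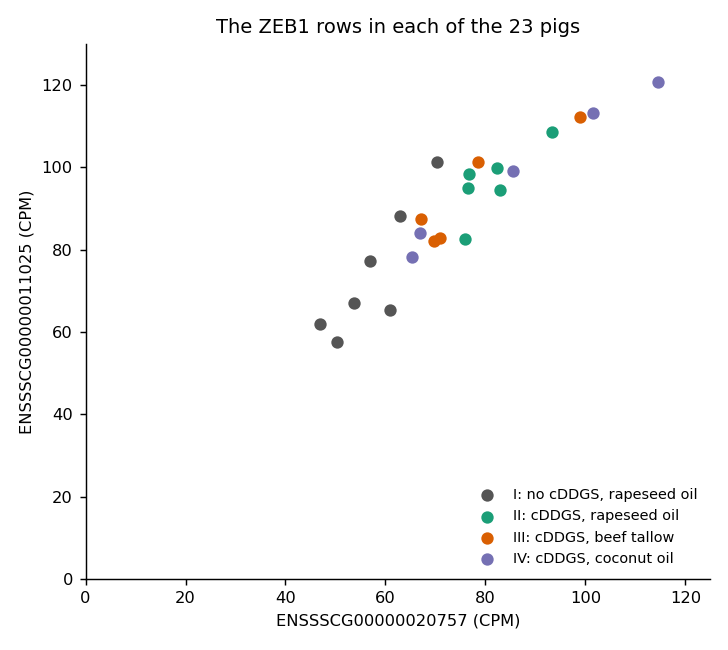
CPM of ENSSSCG00000011025 against CPM of ENSSSCG00000020757, with each dot 1 of the 23 pigs and colours for the diet groups. The dots lie near a single line, with most controls at the lower left and pigs 49 and 54 of group IV at the upper right. Pigs 53 and 55 of group IV lie among the controls, and control pig 1 (101 CPM on ENSSSCG00000011025) lies above the other controls.

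The reads were also divided between the rows in a nearly fixed ratio. ENSSSCG00000020757 held 45.2 ± 2.08% of the ZEB1 reads of a pig (SD, n = 23), from 41.0% in pig 1 (95% Wilson interval 37.9 to 44.1%) to 48.6% in pig 54 (45.1 to 52.2%). By group its share was 43.9 ± 2.69% for group I (SD, n = 7), 45.7 ± 1.5% for group II (SD, n = 6), 45.2 ± 1.54% for group III (SD, n = 5) and 46.4 ± 1.66% for group IV (SD, n = 5). Across all pigs the shares varied little more than counting error, with a chi-square of 27.6 on 22 degrees of freedom, or 1.25 per degree. In group I it was 1.90 per degree of freedom and in the other groups 0.569 to 0.806. Between the diets with cDDGS the share did not differ beyond the spread between pigs, with an exact permutation p of 0.543 for III against II, 0.494 for IV against II and 0.254 for IV against III. Intervals and chi-square cover counting error only.

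Lipogenic genes tended to be low in pigs where ZEB1 was high for their diet, and none of these relations passed the adjustment for the relations computed. For FASN, fatty acid synthase, the lowest control pig had 5587 CPM, the median was 9722 and the highest had 14818. The lowest value belonged to pig 1, the control with the highest ZEB1 level, and the highest to pig 5, the control with the second lowest. Group II had 2057 to 6490 CPM (median 5180), group III had 2939, 3208, 4298, 4528 and 11626, and group IV had 4618, 6026, 6071, 7038 and 7686.

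Within diets, Pearson r between ZEB1 and FASN was -0.49 (permutation p = 0.0117, adjusted p = 0.0763 over the 13 relations, adjusted p = 0.520 over all 11036 genes), and Spearman's rho was -0.44 (permutation p = 0.0344, adjusted p = 0.152 over the relations). Without pigs 2 and 54, the farthest from the median of ZEB1, r was -0.52 with a permutation p of 0.0191. In the single diets r was -0.96 in group I, 0.16 in group II, -0.63 in III and -0.41 in IV, and whether the diets differ in this was not tested. With reads outside genes regressed out of both, r was -0.31 and the permutation p 0.182.

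ACACA, acetyl-CoA carboxylase, which makes the malonyl-CoA used by FASN, ran from 607 CPM in pig 1 to 1960 in pig 5 among the controls (median 1023). Its r with ZEB1 was -0.55 (permutation p = 0.0227, adjusted p = 0.0874 over the relations), and Spearman's rho was -0.47 (permutation p = 0.0522, adjusted p = 0.153). Without pigs 2 and 54 its r was -0.51 with a permutation p of 0.0526, and leaving out pig 1 alone gave -0.46 with a permutation p of 0.0740. Without any other single pig its permutation p was under 0.05.

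ACLY, which cleaves citrate to acetyl-CoA, gave r = -0.44 (permutation p = 0.0736, adjusted p = 0.191) and rho = -0.45 (permutation p = 0.0588, adjusted p = 0.153). It was -0.42 without pigs 2 and 54, and its unadjusted permutation p came under 0.05 without pig 45 (r = -0.53, p = 0.0314) or without pig 52 (r = -0.49, p = 0.0315). SCD, which puts the double bond into saturated fatty acids, gave r = -0.31 (permutation p = 0.127, adjusted p = 0.239), rho = -0.31 (permutation p = 0.173, adjusted p = 0.321) and r = -0.23 without pigs 2 and 54. In group I, r was -0.86 for ACLY, -0.85 for SCD and -0.85 for ACACA. In the same order of genes it was -0.33, 0.20 and 0.08 for group II, -0.27, -0.56 and -0.10 for group III, and -0.31, -0.30 and -0.71 for group IV.

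**Figure D3:**
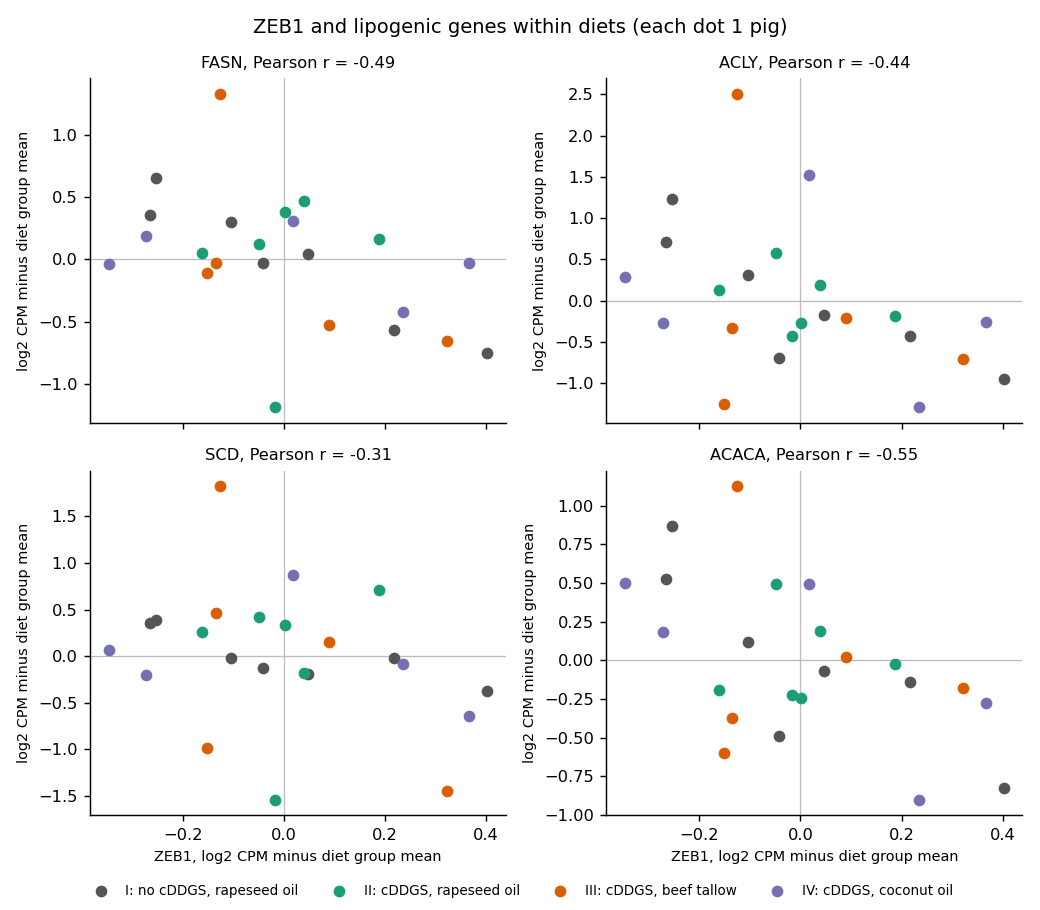
Deviation of FASN, ACLY, SCD and ACACA from the diet group mean (log2 CPM, vertical) against that of ZEB1 (log2 CPM, horizontal), with each dot 1 of 23 pigs. The control pigs slope downwards in all 4 panels, the pigs of group II show no clear slope, and pig 48 of group III lies far above its group.

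Of the 25 symbols of the wider list of lipogenic genes 19 had a row and 17 passed the filter on low counts. Over these 17 genes, r with ZEB1 within diets was negative for 16, with a median of -0.44, and the median over all 11036 genes was -0.00. LPIN1, a phosphatidate phosphatase and coactivator, was the positive gene with r = 0.21. The genes of the list share the same pigs and rise and fall together, so they are not independent.

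In an edgeR fit of every gene on the ZEB1 level with diet group as covariate, no gene of the 11036 had an adjusted p under 0.05, and 3.66% rose and 3.99% fell with ZEB1 at an unadjusted p under 0.05. Of the 17 lipogenic genes 8 had a negative slope at that unadjusted limit and 0 a positive one, with a smallest adjusted p of 0.495, and their median slope was -0.88 log2 units per log2 unit of ZEB1 against 0.00 over all genes. Among the 8, the slope was -1.41 (SE 0.44) for ACACA, -1.48 (SE 0.50) for SLC25A1, the carrier that exports citrate from mitochondria, and -1.84 (SE 0.73) for ME1, the malic enzyme that supplies NADPH. It was -3.28 (SE 1.16) for MOGAT2, a monoacylglycerol acyltransferase, -0.79 (SE 0.29) for GPAM, the first acyltransferase of triglyceride synthesis, and -1.35 (SE 0.53) for ACSS2, which activates acetate. FASN had -1.29 (SE 0.51) and ACLY -2.32 (SE 0.92). Without pig 1 the count was 5 in place of 8.

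**Figure D4:**
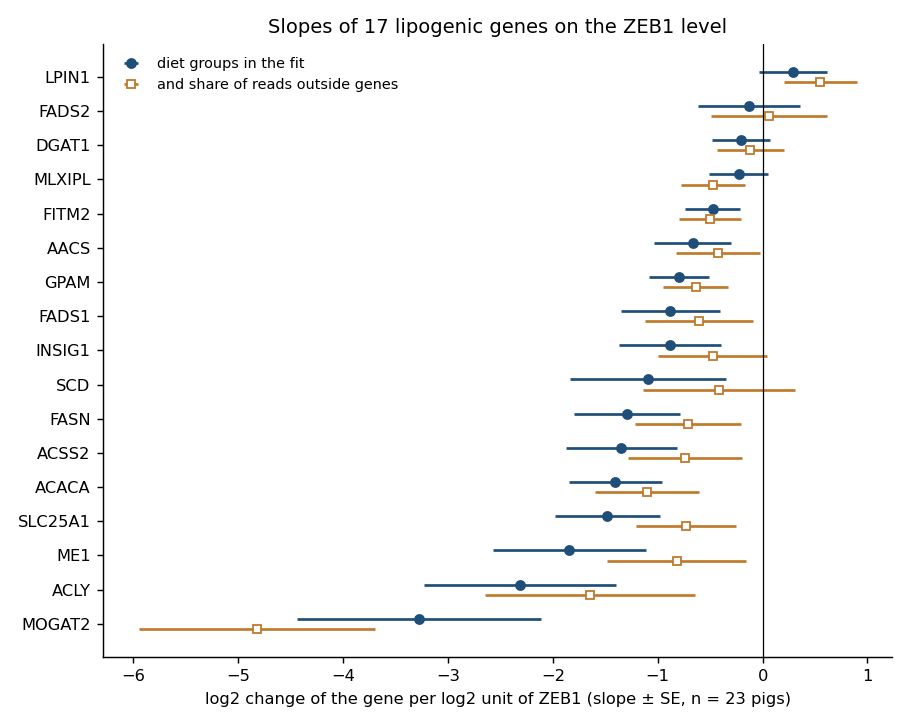
Slope of each of 17 lipogenic genes on the ZEB1 level within diets (log2 per log2 unit, with SE, n = 23 pigs), without (filled circles) and with (open squares) reads outside genes as a covariate. In the first fit 16 slopes are below 0, and with the covariate most lie closer to 0, except that of MOGAT2.

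Reads outside genes were related to both sides of this pattern. Their share had an r with ZEB1 of 0.45 within diets (permutation p = 0.0269, adjusted p = 0.0874 over the relations) and a rho of 0.45 (permutation p = 0.0352, adjusted p = 0.152), and without pigs 2 and 54 r was 0.26, so that it rests in part on them. In the single diets this r was 0.73 in group I, -0.57 in group II, 0.76 in III and 0.85 in IV. Whether the diets differ in this was not tested. Within diets, the share of reads outside genes had a negative r with FASN (r = -0.61, permutation p = 0.00160, adjusted p = 0.00960 over 6 relations), SCD (r = -0.52, adjusted permutation p = 0.0483) and ACACA (r = -0.42, adjusted permutation p = 0.0483), and r with ACLY was -0.36 (adjusted permutation p = 0.0951). In the same 6 relations, r was 0.47 for ENSSSCG00000020757 and 0.41 for ENSSSCG00000011025 (adjusted permutation p = 0.0483 for both). With that share as a covariate, 2 of the 17 lipogenic genes (MOGAT2 and ACACA) had a negative slope on ZEB1 at an unadjusted p under 0.05, against 3.81% of all genes, and their median slope was -0.61. The smallest adjusted p in the list was then 0.595.

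**Figure D5:**
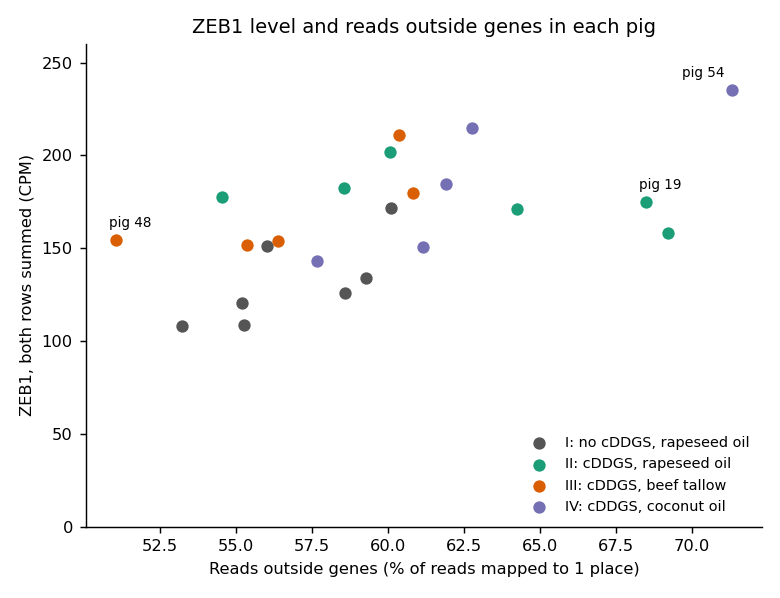
Summed ZEB1 level in CPM against the share of reads outside genes in percent, with each dot 1 of 23 pigs and colours for the diet groups. Pig 54 of group IV has the highest values on both axes (71.3% and 235 CPM), and within group II the 2 pigs with the next highest shares (68.5 and 69.2%) have 175 and 158 CPM.

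No relation of ZEB1 to the summed markers of other cell types was detected. Within diets, r was -0.22 for fat cell markers (7 of 18 with a row, permutation p = 0.310), 0.21 for stromal markers (permutation p = 0.357), 0.22 for endothelial markers (permutation p = 0.338) and 0.00 for macrophage markers (permutation p = 0.998), with Spearman's rho of -0.19, 0.14, 0.24 and -0.03. The smallest adjusted p of these over the 13 relations was 0.422, and without pigs 2 and 54 the 4 values were -0.32, 0.35, 0.18 and 0.26. In the single diets I, II, III and IV, r was 0.75, -0.58, 0.89 and -0.23 for stromal markers. In the same order it was 0.24, -0.42, 0.53 and -0.70 for macrophage markers. For fat cell markers it was -0.71, 0.15, -0.02 and 0.08, and for endothelial markers 0.32, 0.08, -0.38 and 0.76. Whether the diets differ in these values was not tested. The number of reads counted on genes gave r = -0.20 (permutation p = 0.310), and the share of ZEB1 reads on ENSSSCG00000020757 gave -0.05 (permutation p = 0.840). For that share, r in the single diets I, II, III and IV was -0.64, -0.22, 0.29 and 0.93. Whether the diets differ in this too was not tested.

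The mean levels of FASN, ACLY, SCD and ACACA were below those of the control group in each diet with cDDGS, and few lipogenic genes passed the test. FASN averaged 9904 ± 3249 CPM for group I (SD, n = 7), 4982 ± 1563 for group II (SD, n = 6), 5320 ± 3591 for group III (SD, n = 5) and 6288 ± 1164 for group IV (SD, n = 5), and its adjusted p against group I from edgeR was 0.217, 0.556 and 0.242. In group II against I, AACS, which makes acetoacetyl-CoA, fell by 0.82 (SE 0.12) and FITM2, a protein of lipid droplet formation, fell by 0.79 (SE 0.13) on the log2 scale, both with an adjusted p of 0.0393 in edgeR. These were the 2 of 17 that passed the adjusted limit there, where 0.0194% of all genes fell and 0.00969% rose, and in every other comparison with group I it was 0 of 17 and 0.0%. Without each pig in turn the count was 0 to 3, and it was 0 without any of pigs 2, 5, 6, 7 and 8 of group I or 17, 19, 20, 22 and 24 of group II. Over these 13 refits the log2 fold change was -0.88 to -0.76 for AACS, with an adjusted p of 0.0211 to 0.170, and -0.86 to -0.74 for FITM2, with an adjusted p of 0.0222 to 0.171, in edgeR. At an unadjusted p under 0.05, 12 of 17 were lower in group II, 6 in III, 7 in IV and 11 in the combined groups, against 6.4, 3.89, 5.97 and 7.07% of all genes, and none was higher.

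DESeq2 called 8 of the 17 lower in group II, 0 in III, 2 in IV and 5 in the combined groups, against 0.245, 0.0445, 0.19 and 0.313% of all genes, and none higher, against 0.245, 0.0222, 0.546 and 0.513%. The median log2 fold change of the list in edgeR was -0.79, -0.60, -0.35 and -0.52 in the same order, and that of all genes in group II was 0.00. The smallest p in the combined groups was that of MOGAT2, with a log2 fold change of -2.18 (SE 0.46, edgeR adjusted p = 0.0701). FASN, ACLY, SCD, ACACA, FITM2, AACS, ME1, MOGAT2 and SLC25A1 were called by the study in these same pigs, so their direction here is not independent evidence. In group III, pig 48 had high FASN, ACLY, SCD and ACACA, and without it 10 of the 17 genes were lower at the unadjusted limit, without pig 46 it was 3.

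Between the diets with cDDGS, edgeR called 0 of the 17 lipogenic genes. At an unadjusted p under 0.05, 1 was higher in III than in II, 3 in IV than in II and 0 in IV than in III, against 2.79, 2.08 and 2.3% of all genes, none was lower, and DESeq2 called 0. The median of the list was 0.09, 0.29 and 0.18 on the log2 scale. Females against males gave 3 of 17 lower and 0 higher at the unadjusted limit, against 8.57 and 9.14% of all genes, with 0 called by edgeR and 0 by DESeq2, which called 0.563% of genes lower and 0.774% higher.

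ZEB2, the closest relative of ZEB1, was followed in the same way. Its level was 70.5 to 101.3 CPM for group I (mean 89.4 ± 9.76, SD, n = 7) and 95.3 to 133 for group II (mean 117 ± 13.1, SD, n = 6). The pigs of group III had 72.3, 88.6, 95.4, 98.3 and 102 CPM, and those of group IV had 86.9, 102, 105, 114 and 126 CPM. Above the highest control were 5 of 6 pigs in group II, 1 of 5 in III and 4 of 5 in IV. A share over all genes is not given for such counts, so they are a description.

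In edgeR, the log2 fold change of ZEB2 from group I was 0.39 (SE 0.11, adjusted p = 0.219) in group II, 0.03 (SE 0.12, adjusted p = 0.970) in III and 0.26 (SE 0.11, adjusted p = 0.317) in IV, and DESeq2 gave ZEB2 in group II an adjusted p of 0.0430. Within diets its r with ZEB1 was 0.36 (permutation p = 0.129, adjusted p = 0.239) and rho 0.34 (permutation p = 0.153), and without pigs 2 and 54 r was 0.53 with a permutation p of 0.0300. The other factors of epithelial-mesenchymal transition with enough reads were TCF4, TCF3 and TWIST2, and none of the 4 tested passed the adjusted limit in edgeR against group I. TWIST2, a repressor of mesenchymal differentiation, had -0.56 (SE 0.18, adjusted p = 0.139) in the combined groups.

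The rows of most epithelial genes that ZEB1 is known to repress held few or no reads in backfat. Of 20 such genes 14 had a row, 11 of these averaged under 1 CPM in every group (the others were OCLN, KRT8 with up to 1.54 CPM and ST14 with up to 1.04 CPM), and CDH1 and CLDN7 had 0 reads in all 23 pigs, which allows up to 1.23 CPM in the pig with the fewest reads (3 counts) and 0.376 CPM in the pig with the most. In other lists, 2 lipogenic rows and 1 muscle row also had 0 reads in all pigs. Whether a row without reads means a silent gene or a row that collects no reads was not tested. OCLN, the tight junction protein occludin, was the gene of the epithelial list with enough reads for edgeR, at a mean of 22.3 CPM in group I, 29.3 in group II, 32.8 in III and 39.6 in IV. It did not run opposite to ZEB1: its r within diets was 0.49, its slope on ZEB1 0.91 (SE 0.37, unadjusted p = 0.0206, adjusted p = 0.545), and its log2 fold change in the combined groups 0.59 (SE 0.18, edgeR adjusted p = 0.137). In group IV against I, OCLN had an adjusted p of 0.151 in edgeR and 0.0405 in DESeq2.

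Of 18 cofactors of ZEB1, which are corepressors, coactivators and SMAD proteins, 15 had a row and 14 were tested. With edgeR 0 passed the adjusted limit against group I, and at an unadjusted p under 0.05 it was 3 higher in group II, 0 in III, 3 in IV and 2 in the combined groups, against 6.54, 4.08, 8.21 and 8.68% of all genes. At the same limit 1 of 14 was lower in group III, against 3.89% of all genes, and 0 in the other comparisons with group I. SMAD2, which carries TGF-beta signals to the nucleus, had the steepest slope on ZEB1 among the cofactors, 1.04 (SE 0.24, adjusted p = 0.319), and its level averaged 16.9 CPM in group I, 22.6 in group II, 21.2 in III and 26.5 in IV. Over the 14 cofactors, r with ZEB1 ran from -0.43 to 0.73 with a median of 0.05.

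Among genes with a symbol, those most like ZEB1 within diets were EPB41L2 (r = 0.78), a protein of the membrane skeleton, LDB1 (0.77), a cofactor of LIM domain factors, SMAD2 (0.73), TCHP (0.71), TASOR (0.69), RBM17 (0.69), TCEAL1 (0.69), KRI1 (0.69), EIF2B4 (0.68) and CHD3 (0.67), over 23 pigs. The most opposite were OPA1 (-0.85), which fuses the inner membranes of mitochondria, SLC39A9 (-0.76), a zinc transporter, COX7A2 (-0.76), a subunit of cytochrome c oxidase, SBDS (-0.75), a factor of ribosome assembly, and HMGCS1 (-0.73), an enzyme of sterol synthesis. These values describe the extremes of 7878 named genes, and no gene of all 11036 passed an adjusted permutation p of 0.05, the smallest being 0.110. An unadjusted permutation p under 0.05 was found for 8.15% of genes.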

How the data were processed

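Backfat RNA of 23 pigs was sequenced by the authors as stranded, ribosome-depleted total RNA, single-end, in replicate runs, from degraded RNA. Per the study's methods, reads were trimmed with FLEXBAR, mapped with TopHat and counted with HTSeq. The deposited values are raw counts per Ensembl gene, a single column per pig, not normalized, with 25322 gene rows and 5 summary rows. Reads that map to several places are not counted, so reads shared by the ZEB1 rows, if any, are lost. The runs are merged in each file, and how is not given in the sources used here. RSEM is named beside HTSeq for mapping statistics and read counts, without saying which made what. Chromosomal positions and sequences were not used here.

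Symbols came from a gene name table (11804 rows) and, for 81 more, ENSSSCG00000020757 among them, from the study's tables. FASN was likewise summed over 2 rows. Counts were fitted with edgeR 4.0.16 in R 4.3.3 (TMM, filterByExpr, glmQLFit, Benjamini-Hochberg over all genes tested), on the pigs of the groups compared. A gene was called at an adjusted p under 0.05 and a fold above 1.3, the study's limits. Single values were compared by exact permutation of pigs on log2(CPM + 0.5), with 462 regroupings for 6 against 5 pigs and 252 for 5 against 5. Relations were computed after subtracting diet means, with 100000 permutations within diets. Exact and permutation tests were two-sided. Of 56 pairs of pigs in the same group, none differed by as little as sampling noise (smallest chi-square per degree of freedom 7.86), so each pig was 1 sample.

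Genes named were ZEB1, ZEB2, FASN, ACLY, SCD, ACACA, list genes that were called or otherwise the 2 with the smallest p, and the 10 highest and 5 lowest r. The lipogenic genes with a slope on ZEB1, the fat cell marker PLIN1, CDH1, CLDN7, KRT8, ST14 and LPIN1 were named after their values were seen. The members and the 11 gene lists were chosen with earlier results of these data known. Alternatives were DESeq2 1.42.0, median-ratio normalization, no filter, covariates for sex and for reads outside genes, all pigs in 1 fit, each row alone, a pseudocount of 5, Spearman's rho and leaving out each pig. The edgeR comparison of groups II and I and an edgeR slope on a covariate were tried on simulated counts with known changes. Figures were drawn with matplotlib 3.10.9.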

Additional observations from a re-analysis of the deposited data

Results flagged for a closer look

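Within each diet group, the highest or lowest value was compared with the rest of its group in 40 sets of values (ZEB1 summed, by row and as a share of reads, ZEB2, 4 lipogenic genes and reads outside genes, each in 4 diet groups). By Dixon's limit 4 values stood apart, where chance gives about 1 in 20 sets. None of them was a ZEB1 value. In group II, pig 19 had 2057 CPM of FASN against 4874 to 6490 in the others. In group III, pig 48 had 11626 CPM of FASN against 2939 to 4528, 1401 CPM of ACLY against 103 to 213, and 1297 CPM of ACACA against 393 to 603. Pig 48 also had the lowest share of reads outside genes of all pigs, 51.1%, and pig 19 had 68.5%, while their ZEB1 levels of 155 and 175 CPM lay inside their groups. The part of these reads in the lipogenic levels was not tested in single pigs.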

How the results depend on the processing

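Over the results recomputed under other settings, 553 values held their direction and their side of the limit, 43 moved, 3 were weaker and 2 stronger, and none reversed a called value. Between the diets with cDDGS and between sexes, ZEB1 stayed without a call in every setting. Leaving out each pig gave log2 fold changes from -0.15 to -0.03 for III against II, -0.04 to 0.14 for IV against II, 0.03 to 0.22 for IV against III and -0.00 to 0.10 for females against males. The agreement of the rows was 0.85 to 0.91 over all settings, and 0.86 to 0.91 without each pig. Against group I the ZEB1 value without each pig was 0.39 to 0.51 in group II, 0.28 to 0.45 in III, 0.41 to 0.58 in IV and 0.39 to 0.51 in the combined groups.

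With reads outside genes as a covariate, ZEB1 in group IV against I was 0.14, IV against III was -0.17 without a call, the r with FASN was -0.31, and the lipogenic genes with a negative slope on ZEB1 were 2. Lipogenic genes lower at an unadjusted p under 0.05 were then 7 in group II, 10 in III and 1 in IV, and 0 were called in group II. The cause was not tested. All pigs in 1 fit also gave 0 calls in group II, and DESeq2 gave 8 in group II, 2 in IV and 5 in the combined groups. With Spearman's rho, ACACA had -0.47 and an unadjusted permutation p of 0.0522, against 0.0227 with Pearson r. Neither passed the adjustment over the relations.

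Without each pig in turn, r with ZEB1 was -0.59 to -0.41 for FASN, -0.53 to -0.38 for ACLY, -0.40 to -0.17 for SCD and -0.63 to -0.46 for ACACA, and the number of lipogenic genes falling with ZEB1 was 5 to 10. Lipogenic genes lower at an unadjusted p were then 3 to 10 in group III, and those called were 0 to 3 in group II and 0 to 4 in the combined groups. Macrophage markers higher at an unadjusted p were 0 to 4 in group III and 2 to 6 in IV. No paired analysis was possible because each pig had a single diet and the labels do not match pigs between groups. Groups of 5 to 7 pigs, with 332 to 1365 ZEB1 reads per pig and degraded RNA, limit what could be seen.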

Other observations

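Most macrophage markers had positive fold changes against group I, and none was called by edgeR. Of the macrophage markers tested, 8 of 9 were higher in group II at an unadjusted p under 0.05, 2 of 10 in III, 5 of 9 in IV and 7 of 10 in the combined groups, against 6.54, 4.08, 8.21 and 8.68% of all genes, and 4, 0, 0 and 4 of 11 were called higher by DESeq2, against 0.245, 0.0222, 0.546 and 0.513% of all genes. In group III, 1 of 10 (MSR1, a scavenger receptor, named after its value was seen) was lower at that limit. C1QA, a chain of complement C1q, had a log2 fold change of 1.51 (SE 0.32, edgeR adjusted p = 0.161) in group II, and C5AR1, the receptor of complement C5a, 1.14 (SE 0.26, edgeR adjusted p = 0.0779) in the combined groups. MS4A2, a chain of the IgE receptor of mast cells, had 1.03 (SE 0.29, edgeR adjusted p = 0.116) there, and PTPRC, the pan-leukocyte antigen CD45 and the lymphocyte marker with the smallest p, 0.53 (SE 0.22, edgeR adjusted p = 0.242). C1QA, C5AR1, MS4A2 and PTPRC were called by the study in these same pigs, so their direction is not independent evidence. The study also reported other macrophage markers of the list as higher with cDDGS. The counts of macrophage markers are therefore not independent of its calls either. None of the 10 macrophage, 4 lymphocyte and 2 mast cell markers had a slope on ZEB1 within diets at an unadjusted p under 0.05.

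Among fat cell markers, LIPE, the hormone-sensitive lipase, had -0.45 (SE 0.14, edgeR adjusted p = 0.137) and CIDEC, a lipid droplet protein, -0.42 (SE 0.11, edgeR adjusted p = 0.110) in the combined groups. The endothelial markers PCDH12 and ROBO4 had 0.88 (SE 0.21, edgeR adjusted p = 0.0929) and 0.48 (SE 0.13, edgeR adjusted p = 0.110), and CIDEC, PCDH12 and ROBO4 were called by the study in these pigs too. Within diets, PPARG, the master regulator of fat cell formation, had a positive slope on ZEB1 (1.01, SE 0.42) and CIDEC a negative one (-0.54, SE 0.26), with adjusted p-values of 0.563 and 0.634 in edgeR. The 4 muscle markers tested had 0 calls in edgeR and in DESeq2 against group I, and 0 at an unadjusted p under 0.05.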
